A study of Mus musculus with 12 samples.

Results

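Cytosolic ribosomal protein genes encode the proteins that, with the ribosomal RNAs, build the small and the large ribosomal subunit. They were taken as all table rows whose symbol begins with Rpl or Rps and a digit, plus Rplp0, Rplp1, Rplp2 and Rpsa. The kinases named Rps6k, Rps19bp1 and pseudogene symbols were left out by that rule, which removed 8 symbols. The rule gave 78 of the 7318 genes in the count table, 32 of the small subunit and 46 of the large subunit, by symbol alone. The 78 genes lay on 19 mouse chromosomes, with 14 of them on chromosome 7.

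The libraries came from mammary gland cells of 4-week-old FVB/N females that all carried MMTV-Wnt1, which makes the WNT pathway overactive, and MMTV-iFgfr1, an FGF receptor 1 that a drug can switch on. Mice received either AP20187, the dimerizer that activates iFGFR1, or vehicle, and cells were taken 6 h after the injection. From each cell pellet an RNA library (poly(A) selected) and a library of ribosome footprints (fragments that ribosomes shield from nuclease) were made, with 3 libraries per group and 12 in all. The comparisons ask how adding FGFR1 signalling to WNT signalling altered transcripts, ribosome occupancy and the ratio between them. Both transgenes are driven by the MMTV promoter, which is active in mammary epithelium, while the cells sequenced were unsorted and only enriched for epithelium by spins. No mice without the inducible receptor received AP20187, so the compound and the receptor cannot be told apart. Whether each library stands for 1 mouse or for pooled mice is not stated in the labels, so p-values measure only the spread between these libraries, which may be partly technical.

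A ribosome takes up most of its proteins in a single copy each, and cells make them in step. In vertebrates this is helped by a shared start of the transcripts, the terminal oligopyrimidine tract (TOP), a C at the first base followed by a run of C and T. TOP transcripts are translated when the kinase complex mTORC1 is active and are held back through the RNA-binding protein Larp1 when it is not. Growth factor receptors such as FGFR1 feed into mTORC1, which makes these genes a common readout of growth signalling.

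The shared start is shown first, because it is the feature for which these genes are best known. Windows from 10 bases before to 20 bases from the start base onward were read from RefSeq promoters of GRCm38.p6, which matched 58 of the 78 genes, and the capitals mark the run that begins with C at the annotated start. Rps6, on chromosome 4 (minus strand), Rplp2, on chromosome 7 (plus strand), and Rps27, on chromosome 3 (minus strand), have the run, whereas Rps3 and Rpl22l1 do not have it at the annotated base.
Rps6 chr4:86857348-86857377: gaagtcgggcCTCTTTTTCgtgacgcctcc
Rplp2 chr7:141447641-141447670: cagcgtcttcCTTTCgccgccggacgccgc
Rps27 chr3:90213629-90213658: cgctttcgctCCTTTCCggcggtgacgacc
Rps3 chr7:99483690-99483719: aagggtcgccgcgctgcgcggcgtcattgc
Rpl22l1 chr3:28805498-28805527: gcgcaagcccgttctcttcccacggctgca
A C at the annotated start followed by at least 4 bases that are each C or T, read on the transcribed strand only, occurred in 12 of the 58 matched genes (20.7%). It occurred in 2.99% of 5617 other genes of the table and in 3.01% of 27025 RefSeq genes. With the start allowed to lie up to 5 bases to either side, the shares were 48.3% of the ribosomal protein genes, 24% of the other genes of the table and 21.2% of all RefSeq genes. A match describes these letters only.

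The RNA libraries held 94513818 to 237015762 counts with AP20187 and 99484140 to 251874393 with vehicle, over the genes of the table. The footprint libraries held 3042199 to 11018709 counts with AP20187 and 1772969 to 4007613 with vehicle, so a footprint value rests on far fewer reads than an RNA value. A floor of 3 counts stood at 0.0121 to 0.0323 CPM (counts scaled to a common library size) in RNA and at 0.282 to 1.64 CPM in footprints, which covers counting error only. Luminal epithelial markers (7 of 9 in the table) summed to 6970 to 9360 CPM in AP20187 RNA, against 4100 to 5120 CPM in vehicle RNA. Not every gene followed the sum: edgeR called 6 of the 7 higher and 1 lower in RNA. Over all genes 12.4% were called higher and 13.9% lower in RNA. In footprints it called 0 luminal genes higher and 1, Krt19, lower. Basal epithelial markers (6 of 6) summed to 1680 to 2870 CPM with AP20187 and 4030 to 4850 CPM with vehicle, and fibroblast markers (4 of 6) to 944 to 1420 CPM with AP20187 and 2750 to 5140 CPM with vehicle. Among the 6 basal genes edgeR called 0 higher and 3 lower in RNA, with log2 changes from -1.68 to 0.805. All 4 fibroblast genes were called lower. The sums were 47 to 101 CPM against 259 to 496 CPM for adipocyte markers (4 of 5), 209 to 236 against 413 to 563 for endothelium (3 of 4), and 183 to 287 against 220 to 448 for leukocytes (3 of 7), with AP20187 before vehicle. Mast cell markers (2 of 2) summed to 0.516 to 1.4 CPM with AP20187 and 7.72 to 26.2 CPM with vehicle, and Schwann cell markers (3 of 3) to 7.8 to 18.3 CPM with AP20187 and 102 to 204 CPM with vehicle. No marker in the table was at 0 in any RNA library, and no erythroid marker of the list of 4 was in the table. Marker levels of several cell types thus differed between the treatments, and their part in the values below was not tested. In bulk libraries fewer cells of a type and less RNA per cell cannot be told apart.

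Ribosomal protein transcripts were among the abundant RNAs of the gland and most were present at similar levels. Together the 78 genes took 4.51%, 5.01% and 6.07% of RNA counts in the AP20187 libraries, against 4.59%, 6.33% and 4.67% in the vehicle libraries. The groups overlapped, and their means were both 5.2% (SD 0.798 with AP20187 and 0.984 with vehicle, n = 3 each). Per kb of coding sequence, the median gene stood at 1230 CPM in RNA (mean of 6 libraries), with quartiles of 887 and 1670. Rps29, a zinc-binding protein of the small subunit, was highest at 3870 CPM per kb, followed by the stalk protein gene Rplp1 at 3770 and Rps24 of the small subunit at 2680.

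The RNA counts of 3 genes were far below those of the others. Rpl30 stood at 2.27 CPM per kb, Rpl34 at 6.34 and Rps27 at 14.2, and the next lowest, Rpl29, at 62.3. Rpl30 and Rpl34 belong to the large subunit and Rps27 to the small one, and each is taken up by the ribosome like its abundant partners. Rpl30 had 0.682, 0.631 and 1.26 CPM in AP20187 RNA, against 0.659, 0.762 and 0.707 CPM in vehicle RNA. These levels rest on 68 to 164 counts per library and were low in every RNA library. Their footprints were moderate, at 53.6 CPM per kb for Rpl30 and Rpl34 and 53.5 for Rps27. Whether the authors' counting lost RNA reads of Rpl30, Rpl34 and Rps27 was not tested, so their low values are deposited counts and may not be transcript levels. The highest gene exceeded the lowest by 1710-fold, and by 17.3-fold once those 4 genes were set aside. The order of the levels hardly differed between treatments (Spearman rho 0.996 across the 78 genes, which share the same libraries).

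None of the 78 genes passed the threshold in RNA: 0 were called higher and 0 lower with AP20187 by edgeR at an adjusted p of 0.05, where 12.4% of all 7314 genes tested were called higher and 13.9% lower. Unadjusted p-values under 0.05 were found for 2 of the 78 genes, against 40.9% of all genes. DESeq2 called 2 higher and 0 lower, and limma voom 1 higher and 0 lower. The log2 change of the median ribosomal protein gene was 0.01, that of the median of all genes 0.01, and the range was -0.47 to 0.86. The median absolute log2 change was 0.06 for the ribosomal protein genes and 0.34 over all genes, while the median standard errors (SE) were 0.19 and 0.18. The change was above 0 for 43 genes and below 0 for 35, and 76 of the 78 estimates lay within 0.5 of 0 on the log2 scale.

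**Figure D1:**
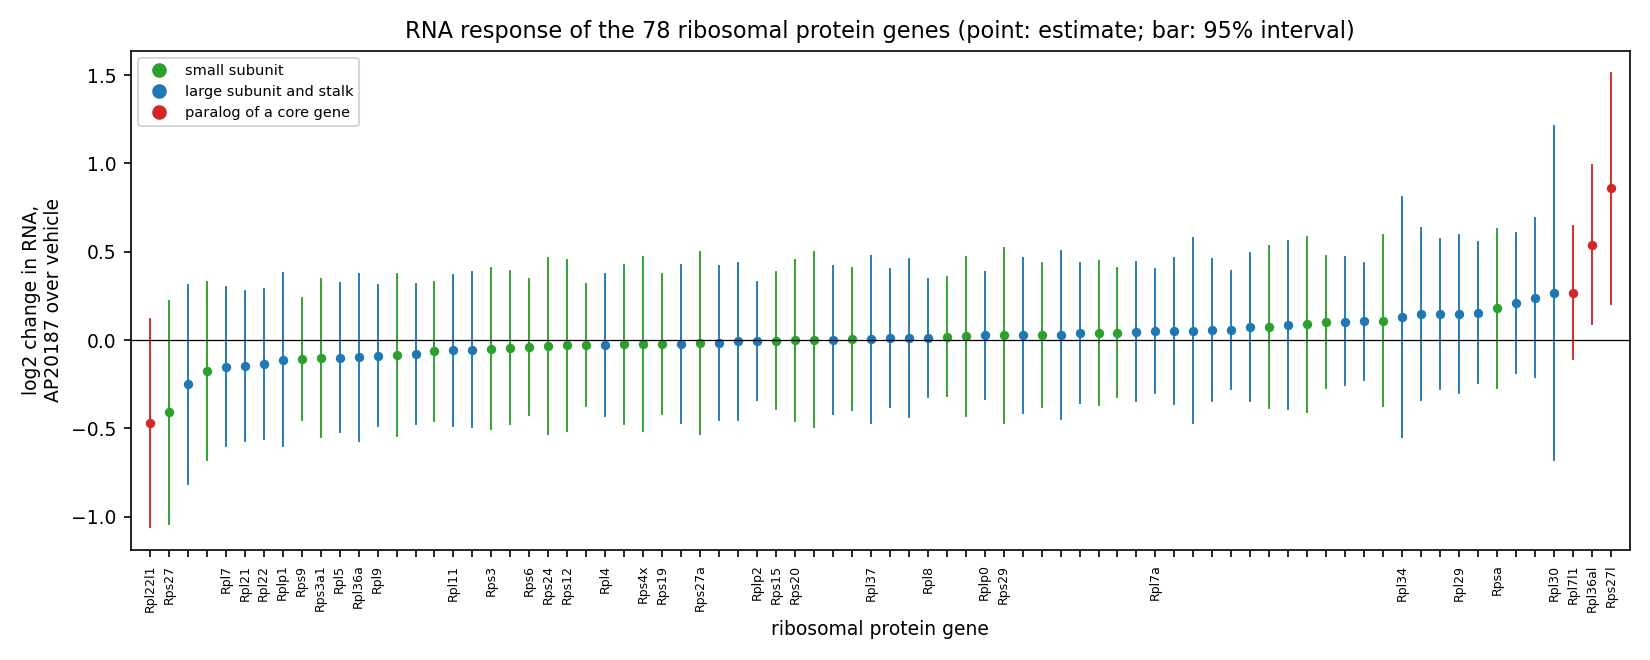
Log2 change in RNA (AP20187 over vehicle) of each of the 78 genes, ordered by size and with some names given, with 95% confidence intervals from the fit over 6 RNA libraries, coloured by subunit and with the 4 paralogs in red. All but 2 estimates lie within 0.5 of 0, and the 2 intervals that leave out 0 belong to Rps27l and Rpl36al at the right end.

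The intervals show how large a change these libraries could have missed. The 95% interval lay wholly within 0.5 of 0 for 42 genes and within 1 for 74, and the median distance from the estimate to a bound was 0.44. Rplp0, the stalk protein gene often used as a reference in PCR, stood at 1824, 1850 and 2011 CPM with AP20187 and at 1783, 2083 and 1716 CPM with vehicle. Its groups overlapped, with a log2 change of 0.03 ± 0.16 (SE, adjusted p = 0.915). Rps6, the small subunit protein that S6 kinases phosphorylate, had 588, 630 and 766 CPM with AP20187 and 635, 784 and 619 CPM with vehicle, a change of -0.04 ± 0.17 (SE, adjusted p = 0.88).

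The other genes of named roles had estimates near 0 as well. The stalk genes Rplp1 and Rplp2, whose proteins recruit translation factors, had log2 changes of -0.11 and -0.01. Rpl5 and Rpl11, whose proteins bind the 5S RNA and can restrain Mdm2, were at -0.10 and -0.06. Rpsa, which also occurs as a laminin receptor, was at 0.18 and Rps27a, which is made as a fusion with ubiquitin, at -0.02. A list drawn up for the exit tunnel, where the new chain leaves the ribosome, held 8 genes of the table, Rpl24 among them. They had a median of 0.01 and a range of -0.25 to 0.07, and the place of each protein was not checked. By subunit, the medians were -0.01 for the 32 small-subunit genes and 0.03 for the 46 large-subunit genes.

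The 3 widest differences in RNA belonged to paralogs, genes that resemble a core gene in name and sequence. Whether any of them takes the place of its core gene in ribosomes was not tested. Rps27l, Rpl36al, Rpl22l1 and Rpl7l1 had the 4 smallest p-values among the 78 genes, and the fifth was that of Rps27, the core partner of Rps27l. Rps27l, a target of p53 on chromosome 9 (66946086 to 66949516, plus strand, GRCm38), had 189, 163.5 and 289 CPM with AP20187 and 95.2, 166 and 92 CPM with vehicle. The lowest AP20187 library lay just under vehicle library 2, and the log2 change was 0.86 ± 0.29 (SE, adjusted p = 0.0572). DESeq2 gave an adjusted p of 0.00989 and limma voom 0.0491, and over all alternative settings of the same comparison the adjusted p ran as high as 0.191, without vehicle library 3. Without vehicle library 2 the change was 1.21 (adjusted p = 0.0183), and without AP20187 library 2 it was 1.03 (adjusted p = 0.0363).

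Rpl36al, on chromosome 12 (69182731 to 69184083, minus strand), encodes a protein nearly identical to that of the X-linked Rpl36a. It had 80.2, 70.8 and 102.7 CPM with AP20187, against 52.1, 72 and 50.2 CPM with vehicle. The groups overlapped by the margin between AP20187 library 2 and vehicle library 2, and the log2 change was 0.54 ± 0.20 (SE, adjusted p = 0.0745). DESeq2 gave an adjusted p of 0.0379. Leaving out vehicle library 2 gave 0.74 (adjusted p = 0.0313), leaving out AP20187 library 2 gave 0.67 (adjusted p = 0.0409), and leaving out vehicle library 3 gave an adjusted p of 0.243. None of the 30-base stretches of its coding sequence is found in this gene alone. What that means for the longer span that RNA reads can cover was not tested.

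Rpl22l1, on chromosome 3 (28805436 to 28807424, plus strand), had 122, 118 and 216 CPM with AP20187 and 166, 212 and 253 CPM with vehicle. Its groups overlapped through AP20187 library 3, and the log2 change was -0.47 ± 0.26 (SE, adjusted p = 0.203). Without that library the change was -0.80 (adjusted p = 0.0233). Rpl7l1, on chromosome 17 (46773907 to 46782672, minus strand), had 240, 177 and 267 CPM with AP20187 and 184, 197 and 187 CPM with vehicle. Its log2 change was 0.27 ± 0.16 (SE, adjusted p = 0.248), and 0.43 (adjusted p = 0.0383) without AP20187 library 2, which lay below all vehicle libraries.

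Setting each paralog against its core gene within a library removes only what both genes share in that library. The ratio of Rps27l to Rps27 was 66, 56.7 and 83.2 with AP20187 and 26.4, 46.2 and 18.3 with vehicle, with no overlap. It divides by the low Rps27 counts, which may be incomplete, so its size is a ratio of deposited counts and may not be that of the transcripts. Rps27 itself had 2.86, 2.88 and 3.47 CPM with AP20187 and 3.61, 3.60 and 5.02 CPM with vehicle, and its log2 change was -0.41 ± 0.28 (SE, adjusted p = 0.295). Among the vehicle libraries, Rps27 was highest in library 3 and Rps27l in library 2, so their ratio still holds differences between libraries. Rps27 was the only ribosomal protein gene whose RNA libraries did not overlap, with all AP20187 values below all vehicle values, where 23.1% of all genes lay wholly below and 21.9% wholly above. The ratio of Rpl36al to Rpl36a was 0.343, 0.276 and 0.29 with AP20187 and 0.207, 0.195 and 0.178 with vehicle. The ratio of Rpl7l1 to Rpl7 was 0.215, 0.158 and 0.167 with AP20187 and 0.146, 0.122 and 0.135 with vehicle. In these 3 pairs every AP20187 ratio exceeded every vehicle ratio, with mean log2 differences of 1.27, 0.65 and 0.41. Each had a 2-sided exact permutation p of 0.1, the smallest that 3 against 3 libraries allow, and 0.133 after adjustment over the 4 pairs. The ratio of Rpl22l1 to Rpl22 was 0.374, 0.329 and 0.463 with AP20187 and 0.46, 0.431 and 0.614 with vehicle, a log2 difference of -0.37 with overlap at 1 library (exact permutation p = 0.3).

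**Figure D2:**
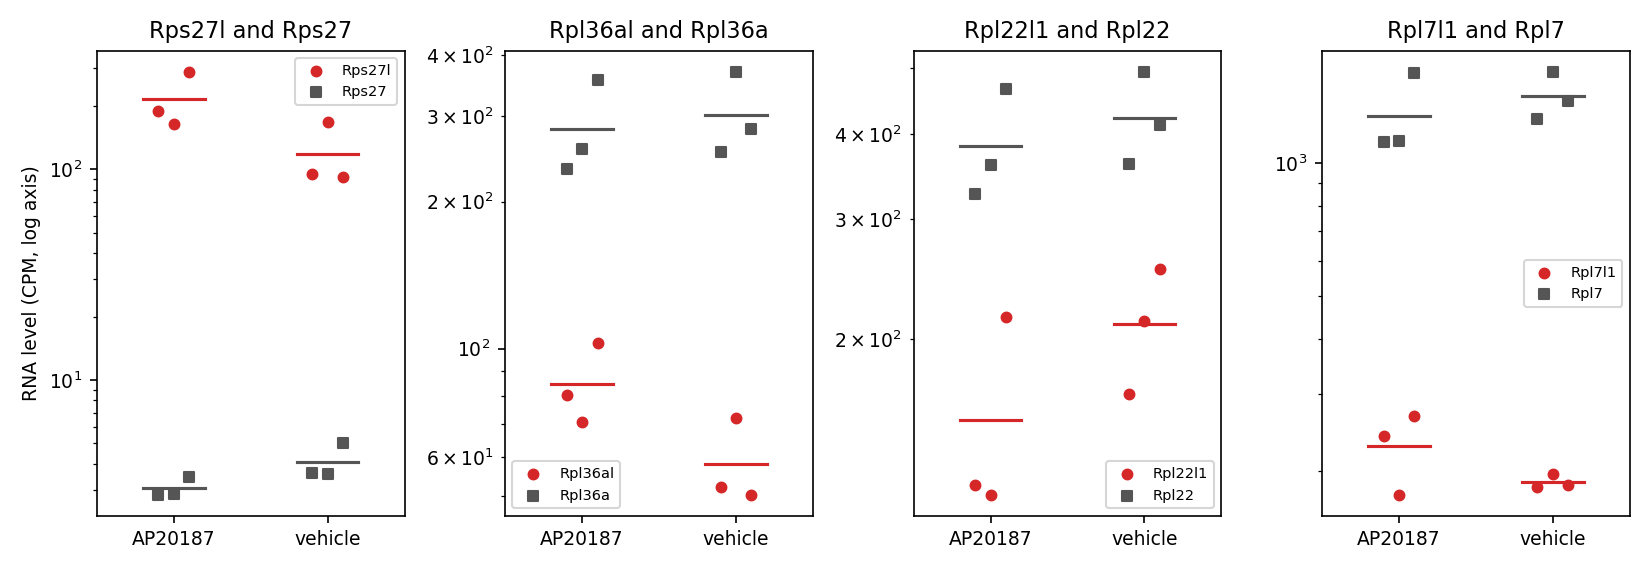
RNA level in CPM (log axes that differ between panels) of 4 paralogs (red circles) and their core genes (grey squares) in 3 AP20187 and 3 vehicle libraries, with bars at the group means. The counts of Rps27l exceed the low and possibly incomplete counts of Rps27 by 18.3-fold or more in every library, whereas the other 3 paralogs lie below their core genes.

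Ribosomal protein transcripts varied together from library to library within each treatment. Relative to the vehicle mean, the median gene stood at -0.18, -0.10 and 0.27 on the log2 scale in AP20187 libraries 1, 2 and 3 and at -0.16, 0.25 and -0.10 in vehicle libraries 1, 2 and 3. AP20187 library 3 and vehicle library 2 were thus high, and the other 4 libraries were low. Of the 78 genes, 75 were highest in AP20187 library 3 among the AP20187 libraries, where 34.8% of all genes were, and 75 were highest in vehicle library 2 among the vehicle libraries, where 40.4% of all genes were. The median over all genes lay between -0.01 and 0.00 in these 6 libraries. Without AP20187 library 3 the median change of the ribosomal protein genes was -0.13, and without vehicle library 2 it was 0.16. The direction of that median therefore rests on single libraries.

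**Figure D3:**
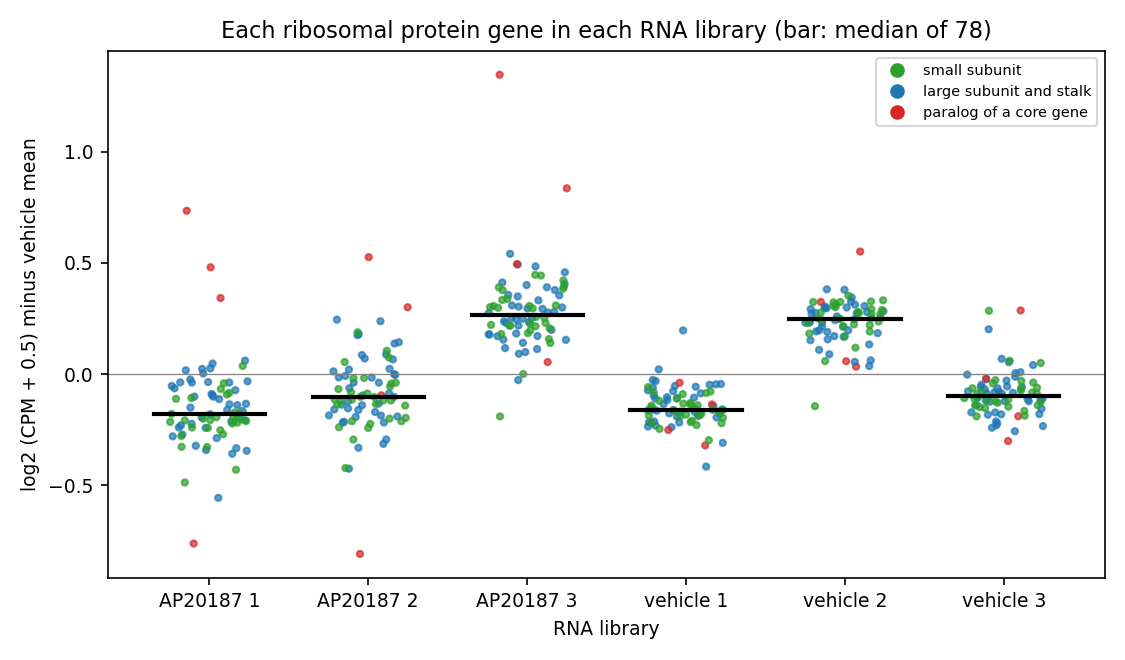
Each of the 78 genes in each of the 6 RNA libraries, as log2 of CPM plus 0.5 minus the mean of the vehicle libraries, with a bar at the median of the 78. AP20187 library 3 (median 0.27) and vehicle library 2 (median 0.25) stand above the other 4, whose medians lie between -0.18 and -0.10.

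Ribosome footprints gave a different picture of the same genes. The 78 genes took 1.33%, 1.29% and 1.54% of footprint counts in the AP20187 libraries, against 1.59%, 1.59% and 1.43% in the vehicle libraries (means 1.39% with SD 0.136 and 1.54% with SD 0.0918). The 5 genes with the most footprints, Rpl8, Rps3, Rps9 and Rps20 among them, took 59.6%, 57.4% and 67% of those counts with AP20187 and 59.8%, 60.9% and 66.2% with vehicle. The 5 genes with the most RNA took 15.4% to 16.2% of the RNA counts of the 78 genes with AP20187 and 15.4% to 16% with vehicle. Per kb of coding sequence the levels of the 78 genes had a coefficient of variation of 226% in footprints and 55.5% in RNA.

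Rpl8, a large-subunit protein near the site where peptide bonds form, had 2826, 2319 and 3528 CPM in AP20187 footprints and 3217, 2931 and 3122 CPM in vehicle footprints. Rps3, a small-subunit protein at the entry of the mRNA channel, had 2129, 1676 and 2916 CPM with AP20187 and 2278, 2321 and 2813 CPM with vehicle. Both were high in every footprint library, and the groups overlapped for each.

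At the other end, Rpsa had 14, 5 and 8 footprint counts with AP20187 and 0, 1 and 0 counts with vehicle. Rpl17 had 9, 1 and 3 counts with AP20187 and 0, 2 and 0 with vehicle, and Rps7 had 9, 0 and 2 with AP20187 and 0, 4 and 0 with vehicle. In RNA, Rpsa had 1261, 1322 and 1646 CPM with AP20187 and 1117, 1539 and 1080 CPM with vehicle. Per kb of coding sequence its RNA stood at 1500 CPM, between the median of 1230 and the upper quartile of 1670 of the 78 genes. Footprint counts of 3 or fewer were found for up to 10 of the 78 genes in an AP20187 library and for 10 to 17 in a vehicle library. The mean per library was under 20 counts for 21 genes.

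These extremes go with how much of a coding sequence can be told from other genes. Ribosomal protein genes have many processed pseudogenes, copies of their mRNA scattered over the genome, and a footprint is a short read. Each coding sequence was cut into all stretches of 30 bases, and each stretch was looked for in the transcripts of every other gene of the GENCODE vM21 annotation (GRCm38). The median ribosomal protein gene had 2.98% of its stretches to itself, and the median of 7054 other genes of the table had 100%. No stretch was unique for 32 of the 78 genes, and with 1 mismatch allowed none was for 60. A median of 15 other genes, and up to 164 for Rpl7a, held a stretch of a ribosomal protein gene.

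The first 30 coding bases of genes picked for the contrast follow, with the start codon in capitals. Those of Rpl8 and Rps3, the genes with the most footprints per kb, were found in 0 other annotated genes. Those of Rpl21 were found in 40, those of Rps12 and of Rps6 in 7 each and those of Rpsa in 3. Other genes went against this order: those of Rps7, at 1.02 CPM per kb in footprints, were found in 1. Those of Rplp0, at 601 CPM per kb, were found in 4.
Rpl8: ATGggccgtgtgatccgagggcagaggaaa
Rps3: ATGgcggtgcagatttccaagaagaggaag
Rpl21: ATGacgaacacaaagggaaagaggagaggc
Rps12: ATGgccgaggaaggcatagctgctggaggt
Rps6: ATGaagctgaacatctccttccccgccacc
Rpsa: ATGtccggagcccttgacgtcctgcagatg
Over the whole coding sequence, 88.8% of the stretches of Rpl8 and 80% of those of Rps3 were unique, against 0% for Rpl21, Rps12, Rps6 and Rpsa. Across the 78 genes the unique share and the footprint level per kb had a Spearman rho of 0.759, and the unique share and the RNA level per kb a rho of 0.186. These are descriptions over genes that share libraries and base composition. Footprint and RNA levels per kb had a rho of 0.359 with each other.

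**Figure D4:**
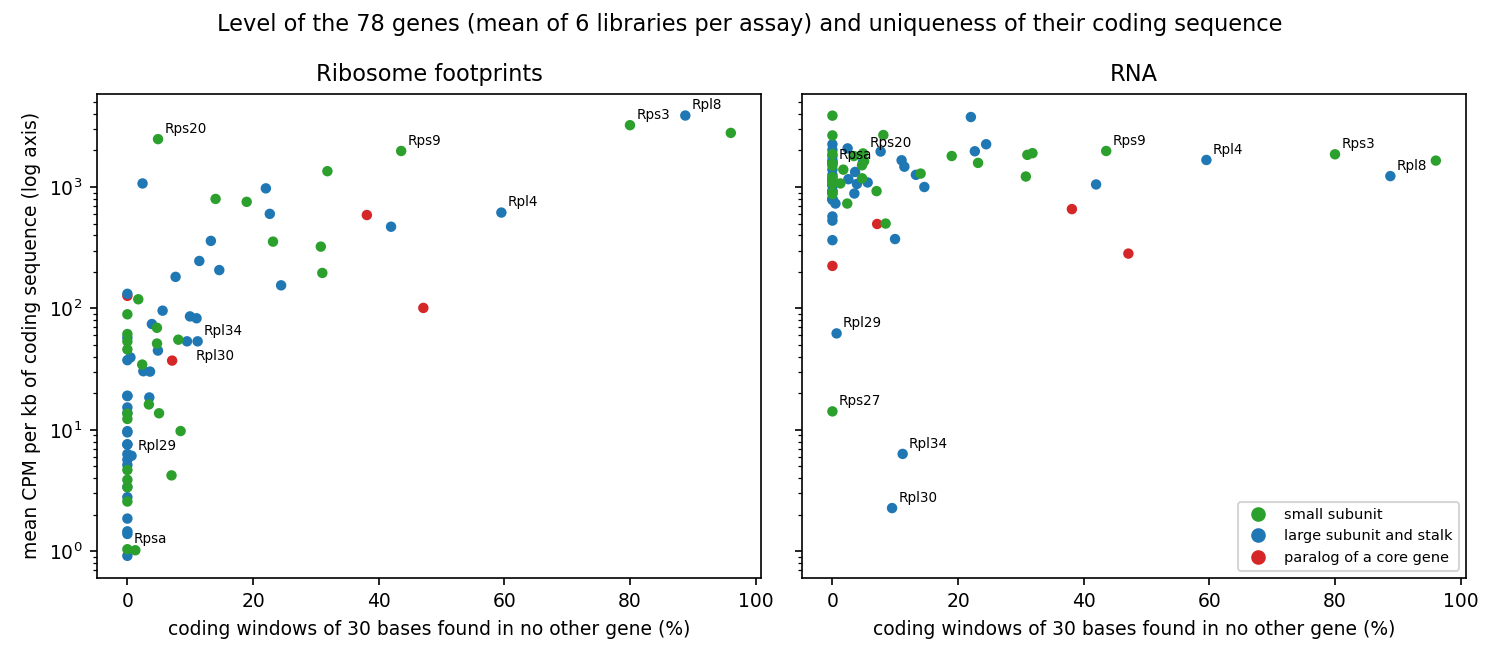
Mean level per kb of coding sequence (log axis, mean of 6 libraries) of the 78 genes in footprints (left) and RNA (right) against the share of 30-base coding stretches found in no other annotated gene. Footprint levels climb with the unique share, from a median of 8.57 CPM per kb at 0% to 3010 above 50%, and the RNA medians of the same 2 classes are 1130 and 1660.

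Grouped by unique share, the medians in footprints were 8.57 CPM per kb for the 32 genes with none, 42.3 for 24 genes with up to 10%, 357 for 18 genes with up to 50% and 3010 for the 4 genes above 50% (with Rpl8, Rps3 and Rpl4 among them). The medians in RNA were 1130, 1130, 1530 and 1660 CPM per kb in the same order. Not every gene followed the order: Rps20, with 4.88% unique stretches, had 2480 CPM per kb in footprints, the fourth highest. How the authors' counting treated reads that fit several places is not given in the sources used here, and the part of shared sequence in the low footprint values was not tested beyond these levels.

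Footprints set against RNA within a treatment were lower for most of the 78 genes. With AP20187, 6 were called higher in footprints than in RNA and 68 lower, where 19.4% of all 7315 genes were called higher and 20.5% lower. With vehicle, 6 were called higher and 67 lower, where 26.7% of all genes were called higher and 24.2% lower. The median log2 ratio of the 78 genes was -4.60 with AP20187 and -4.23 with vehicle, and that of all genes 0.00 and 0.06. The ratios are relative to the average gene of the table. In both treatments the higher genes included Rpl30, Rpl34, Rps27, Rpl8 and Rps3. The first 3 are the genes with the low and possibly incomplete RNA counts, with ratios of 4.19, 3.24 and 2.17 with AP20187 and 5.14, 3.17 and 1.90 with vehicle.

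Rpl8 and Rps3 were abundant in both assays, with ratios of 1.70 ± 0.21 and 0.85 ± 0.26 with AP20187 and 1.86 ± 0.21 and 0.99 ± 0.26 with vehicle (SE, edgeR, adjusted p = 3.98e-05, 0.0171, 1.32e-05 and 0.00546 in that order). The AP20187 call of Rps3 was lost under several settings, with an adjusted p of 0.0754 when AP20187 RNA library 1 was left out, 0.0605 without AP20187 RNA library 2 and 0.0744 without AP20187 footprint library 3. Among genes with at least 20 counts, the lowest ratios included those of Rps12, Rpl21, Rps4x and Rpl9. Rps4x, encoded on the X chromosome, had 119, 46 and 26 footprint counts with AP20187, beside 1195, 1298 and 1737 CPM in RNA. With vehicle it had 46, 15 and 42 footprint counts, beside 1222, 1778 and 1297 CPM in RNA. Its log2 ratios were -6.95 ± 0.44 with AP20187 and -6.47 ± 0.44 with vehicle (SE). The ratios with AP20187 were -7.30 for Rps12, -7.09 for Rpl21 and -6.71 for Rpl9. With vehicle they were -7.82, -6.72 and -6.61 for the same genes.

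The ratio followed the unique share as well. Its median, averaged over the treatments, was -6.77 for the 32 genes with no unique stretch, -4.29 for the next 24, -1.65 for the next 18 and 0.89 for the 4 genes above 50%. Other genes of the table had medians of -0.79 (92 genes), -1.20 (103 genes), -0.61 (377 genes) and 0.06 (6479 genes) in the same classes. Across the ribosomal protein genes rho was 0.723, and 0.628 over the 57 genes with at least 20 footprint counts. In the 22 genes with over 10% unique stretches, 16 were called lower with AP20187 and 14 with vehicle, with median ratios of -1.38 and -1.31. Over all genes 20.5% and 24.2% were called lower. In the class of 18 genes, 83.3% and 72.2% were lower, against 44.3% and 42.2% of the other genes of that class. Of the 4 genes above 50%, 3 were called higher in both treatments and Rpl4 lower, at -1.36 and -1.28. With the less unique genes left out, the median ratio was thus nearer to 0, but it stayed below the 0.00 and 0.06 of all genes.

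Between treatments, no ribosomal protein gene was called in footprints. Of the 78 genes 60 had enough counts for the test and 18 did not, and 0 of the 60 were called higher and 0 lower by edgeR, where 0.937% of the 7041 genes tested were called higher and 1.6% lower. Unadjusted p-values under 0.05 were found for 3 of the 60, against 16.5% of all genes, and DESeq2 and limma voom called 0. The median log2 change was -0.14 for the 60 genes and 0.03 over all genes. The change was above 0 for 19 of the 60 and below 0 for 41, in genes that share the same libraries. A count over the 60 says nothing of the 18, since a gene can pass the filter through the group in which it is higher. Precision was lower than in RNA: the median distance from the estimate to a bound of the 95% interval was 1.07, with 16 intervals within 1 of 0 and none within 0.5.

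**Figure D5:**
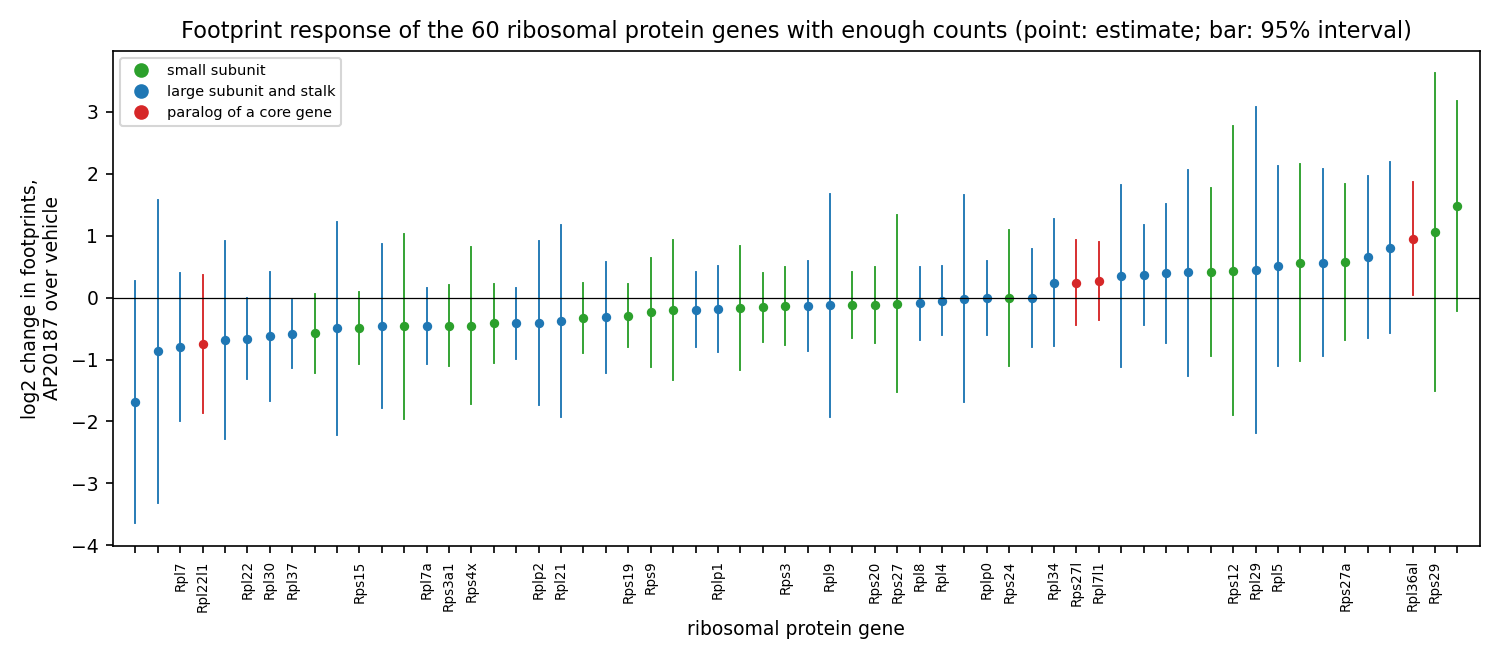
Log2 change in footprints (AP20187 over vehicle) of the 60 genes with enough counts for the test, ordered by size and with some names given, with 95% confidence intervals from the fit over 6 footprint libraries. The intervals, with a median distance of 1.07 from estimate to bound, are wider than those in RNA, and 3 of the 60 leave out 0.

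The smallest p-values were those of Rpl37, Rpl36al and Rpl22. Rpl37, a zinc-binding protein of the large subunit, had 53, 61 and 58.1 CPM in AP20187 footprints and 96.4, 76.9 and 84.6 CPM in vehicle footprints, with a log2 change of -0.58 ± 0.25 (SE, adjusted p = 0.27). Its RNA was level, at 0.01 ± 0.21 (SE, adjusted p = 0.988). Rpl36al had 53.6, 46 and 60.3 CPM in AP20187 footprints and 12.6, 42 and 28 CPM in vehicle footprints, with a change of 0.95 ± 0.41 (SE, adjusted p = 0.272). It was the only gene of the 60 whose AP20187 libraries all lay above the vehicle libraries, where 11.4% of all genes did so, and its RNA estimate had the same sign. Rpl22 had 153, 156 and 109 CPM with AP20187 and 253, 267 and 146 CPM with vehicle, a change of -0.67 ± 0.30 (SE, adjusted p = 0.293).

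In 6 of the 60 genes all AP20187 libraries lay below all vehicle libraries, Rpl37, Rpl7a, Rps15, Rps19 and Rps3a1 among them, where 11.8% of all genes did so. Among the 18 genes that were not tested, Rpsa, Rpl23a and Rpl27a had all AP20187 values above all vehicle values, at counts near the floor. The order of footprint levels was alike in the treatments (rho 0.972 across the 78 genes).

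The translational efficiency, footprints over RNA per gene, was compared between AP20187 and vehicle as an interaction in a single fit over 12 libraries. It was called higher for 0 and lower for 0 of the 78 genes by edgeR, and in all 7315 genes the shares were 0% and 0%. Unadjusted p-values under 0.05 were found for 8 of the 78, against 4.78% of all genes, and DESeq2 and limma voom called 0. The 5 smallest belonged to Rpl27a, Rpsa, Rpl19, Rpl10 and Rpl23a, and each had footprint counts near 0 in at least 1 vehicle library. Rpl27a had 17, 6 and 1 footprint counts with AP20187 and 0, 0 and 0 with vehicle. Rpl19 had 8, 1 and 2 with AP20187 and 0, 7 and 17 with vehicle, and Rpl10 had 79, 22 and 8 with AP20187 and 0, 5 and 3 with vehicle. Rpl23a had 7, 6 and 5 with AP20187 and 0, 0 and 1 with vehicle. Vehicle footprint libraries 1 and 2 were the shallowest of the 12, and the lowest adjusted p of these genes was 0.779.

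For genes with many footprints the efficiency estimates were small beside their errors. The log2 difference was -0.16 ± 0.29 for Rpl8, -0.14 ± 0.36 for Rps3 and -0.08 ± 0.31 for Rplp0 (SE). The adjusted p was 0.993 or above for each. Rps27l, at 176, 183 and 121 CPM in AP20187 footprints and 196, 111 and 100.5 CPM in vehicle footprints, had an efficiency difference of -0.68 ± 0.45 (SE, adjusted p = 0.988).

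Genes that work with ribosomal proteins were counted against the same shares over all genes in RNA, 12.4% called higher and 13.9% lower. Fau, which encodes a ribosomal protein under another name, had a log2 change of -0.03 and was not called. Of 25 other TOP genes, mostly translation factors, edgeR, DESeq2 and limma voom each called 0 higher and 1 lower, edgeR with 1 unadjusted p-value under 0.05 and a median of 0.04. Both counts lay below those shares. The gene called was Vim, the intermediate filament of mesenchymal cells, at 199.7 ± 17.3 CPM with AP20187 and 463 ± 103 CPM with vehicle (SD, n = 3 each), with a log2 change of -1.21 ± 0.18 (SE, edgeR adjusted p = 0.00684). The fibroblast markers moved the same way, and their part in this change was not tested.

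Of 14 listed regulators of TOP translation, out of 18 on the list, 2 were called higher and 1 lower in RNA, where 12.4% of all genes were called higher and 13.9% lower. With so few genes these counts do not set the list apart, and the calls are given for the single genes. Eif4ebp1, a repressor of translation that mTORC1 switches off, rose to 44.3 ± 2.1 CPM with AP20187, against 18.2 ± 5.76 CPM with vehicle (SD, n = 3 each, log2 change 1.28 ± 0.23 SE, edgeR adjusted p = 0.00949). Rptor, the raptor subunit of mTORC1, rose by 0.69 ± 0.14 (SE, adjusted p = 0.0136), and Tsc1, which restrains mTORC1, fell by 0.53 ± 0.14 (SE, adjusted p = 0.0314). Larp1, the repressor of TOP transcripts, had a log2 change of 0.16 ± 0.21 (SE, adjusted p = 0.594). Footprint log2 changes of the called genes were 0.25 ± 0.35 for Eif4ebp1, 0.99 ± 0.325 for Rptor and 0.13 ± 0.52 for Tsc1 (SE). None of them was called in footprints (edgeR adjusted p = 0.808, 0.148 and 0.941), and the Tsc1 estimate had the opposite sign to its RNA.

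Of 38 listed genes of ribosomal RNA synthesis and ribosome assembly, out of 41, 9 were called higher and 2 lower in RNA, where 12.4% of all genes were called higher and 13.9% lower, with a median log2 change of 0.27, against 0.01 over all genes. DESeq2 called 15 higher and 2 lower, and limma voom 10 higher and 2 lower. The genes that rose included Rrp1b, a nucleolar assembly factor, at 0.95 ± 0.16, Polr1b, a subunit of RNA polymerase I, at 0.77 ± 0.20, and Bop1 and Pes1, partners in large-subunit assembly, at 0.50 ± 0.13 and 0.40 ± 0.13 (SE, edgeR adjusted p = 0.00803, 0.0269, 0.0249 and 0.0466 in that order). The others were Gar1, Ebna1bp2, Rrs1, Nop2 and Nob1. Nop58, a core protein of small nucleolar particles, fell by 0.97 ± 0.23 (SE, adjusted p = 0.0203) and Sbds, which readies the large subunit for joining, fell by 0.60 ± 0.15 (SE, adjusted p = 0.0252). In footprints edgeR called 0 assembly genes, where 0.937% of all genes were called higher and 1.6% lower. It gave 7 of the 38 an unadjusted p-value under 0.05, against 16.5% of all genes, and a median of 0.35, while DESeq2 called 2 higher and 1 lower and limma voom 0. For the regulators edgeR called 0 in footprints, with 1 unadjusted p-value under 0.05 and a median of 0.28, and DESeq2 and limma voom called 0. For the other TOP genes edgeR called 0 in footprints, with 2 unadjusted p-values under 0.05, and DESeq2 and limma voom called 1 lower each. Summed luminal marker RNA was higher with AP20187 as well, with 6 of the 7 genes called higher and 1 lower. Its part in these differences was not tested.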

How the data were processed

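The authors deposited raw read counts per gene symbol for 6 RNA and 6 ribosome footprint libraries, not normalized. The submitters' processing notes name HTSeq, Bowtie2, STAR, cutadapt and bcl2fastq 1.8.3, and mm10 as the build. The sources used here do not give their settings, the strand setting, the handling of reads that fit several places, the region counted or the choice of the 7318 genes. Reads that fit several gene copies can be lost or split by such counting, and genes that overlap can share reads.

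From these counts, CPM were computed with TMM-scaled library sizes per assay, so values are relative to the other genes of the table. Every test was fitted on the whole table after filterByExpr with edgeR 4.0.16 (quasi-likelihood, R 4.3.3) and adjusted over all genes by the Benjamini-Hochberg method, 2-sided, at a threshold of 0.05. RNA and footprint changes came from 6 libraries each, with treatment as the only term, and efficiency and footprint-to-RNA ratios from all 12. DESeq2 1.42.0, limma voom 3.58.1, other scalings and filters, left-out libraries and replicate blocks were alternatives. The procedure was tested on simulated data. Levels per kb used the coding length, without the stop codon, of the main GENCODE vM21 transcript, in place of the RefSeq protein length planned.

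Replicate numbers did not pair the treatments in RNA, where same-numbered libraries had deviations that correlated at 0.216, -0.05 and -0.04. In footprints, same-numbered libraries correlated at 0.199, 0.269 and 0.382, and libraries of unlike number at -0.279 to 0.08. The footprint fit reported left this pairing out, and the replicate block was an alternative. RNA and footprint libraries shared a cell pellet, per the labels' protocols, and correlated at 0.46, 0.53 and 0.377 with AP20187 and at 0.048, 0.103 and 0.344 with vehicle. Vehicle footprint library 1 correlated more with vehicle RNA library 2, at 0.159, than with its own RNA library.

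Members, lists and the rule for named genes were chosen with earlier results of these data known. Named were the 5 smallest p per comparison where fewer than 5 genes passed, the 5 highest and 5 lowest ratios among genes with at least 20 footprint counts, the 3 highest and lowest per kb, the paralogs and 8 genes of known roles. A few members are left unnamed in the text. Rps9, Rps20, Rps4x as an example and Rpl29 were singled out after their values had been seen, and so were 2 alternatives that kept only genes with over 10% unique stretches or with at least 20 footprint counts.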

Additional observations from a re-analysis of the deposited data

How the results depend on the processing

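In RNA, the number of ribosomal protein genes called higher was 0 in the fit reported, 2 with DESeq2, 1 with limma voom and 0 to 3 when a library was left out: 2 without vehicle library 2 (Rps27l and Rpl36al) and 3 without AP20187 library 2 (Rps27l, Rpl36al and Rpl7l1). The number called lower was 0 to 1, the call being Rpl22l1 without AP20187 library 3. Other scalings, no filter and the replicate block each called 0 in RNA. With the replicate block the RNA change of Rps27l was 0.88 (adjusted p = 0.117) and that of Rpl22l1 -0.51 (adjusted p = 0.0735). In footprints and in efficiency the number called was 0 under every alternative, replicate blocks included, and in the footprint-to-RNA ratios the replicate block moved no count of calls by more than 1. With a library left out, 66 to 68 genes were called lower in footprints than in RNA with AP20187 and 63 to 68 with vehicle, and 4 to 6 and 5 to 7 were called higher. Among genes with over 10% unique stretches, 16 of 22 were lower with AP20187 and 14 of 22 with vehicle, where 20.5% and 24.2% of all genes were. The median ratios were nearer to 0, at -1.38 and -1.31. Without the 5 genes with the most counts, the shares of all counts were 4.37% for AP20187 RNA (SD 0.694), 0.532% for AP20187 footprints and 0.582% for vehicle footprints. Of 2417 values of named genes under alternatives, 2386 kept their side of the threshold, 22 lost a call, 9 gained one and 0 called values changed sign. Among those that kept their side, 147 changed sign while called in neither fit. The footprint and efficiency values had 0 calls throughout, so keeping their side says little about their direction. For the changes listed here the cause was not tested. Depth and the spread between libraries limit the footprint results: vehicle footprint libraries hold 10 to 17 of the 78 genes at 3 counts or fewer. The part of shared sequence was not tested beyond the levels given above.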

Other observations

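Of the 8 symbols left out by the rule, 1 was called higher and 1 lower in RNA, near the shares over all genes of 12.4% and 13.9%. Rps6ka1, a kinase of the ERK pathway, had 166 ± 37.4 CPM with AP20187 and 84.2 ± 14.9 CPM with vehicle (SD, n = 3 each), a log2 change of 0.98 ± 0.20 (SE, edgeR adjusted p = 0.0132). Rps6ka5, a nuclear kinase that acts on chromatin, had 25.6 ± 2.21 CPM with AP20187 and 44.4 ± 4.62 CPM with vehicle, a change of -0.79 ± 0.15 (SE, adjusted p = 0.0113). Rps6ka3 stood at -0.51 ± 0.16 (SE, adjusted p = 0.0509). Rps6kb1, the kinase that phosphorylates the ribosomal protein Rps6, had 137 ± 13.1 CPM with AP20187 and 140 ± 11.8 CPM with vehicle, a change of -0.03 ± 0.13 (SE, adjusted p = 0.896). None of the 8 symbols passed in footprints, where the smallest adjusted p among them was 0.196 (edgeR), that of Rps6kc1.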
